A study of Mus musculus with 8 samples.

Results

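Cytosolic and mitochondrial chaperones and heat shock genes, 36 genes listed by symbol, were followed across 8 libraries of J1 mouse embryonic stem cells. All 36 symbols were present in the table of 23818 gene symbols; the list names genes by family and sets no threshold on a measured value, but it was drawn up with earlier results of these data known. The cells were wild type (WT) or a Mettl6 knockout (KO) in a single clone, G6, so the genotype and the history of that clone cannot be told apart. Both were kept in 2i medium with LIF and received cycloheximide, which stops elongating ribosomes, for 10 min before they were lysed. METTL6 methylates tRNA to give 3-methylcytidine, and the study asked how its loss alters translation. Total RNA and ribosome footprints, the RNA fragments that 80S ribosomes shield from RNases A and T1, were sequenced in 2 libraries each per genotype, described as biological replicates with no further word on how the cultures were separated. P-values therefore measure the spread between these libraries.

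Chaperones bind unfolded proteins and help them reach or keep their folded form. HSP70 proteins take up new chains with the help of J proteins, HSP90 works on nearly folded clients such as kinases and steroid receptors together with a set of co-chaperones, and the ring-shaped chaperonin TRiC encloses actin, tubulin and other proteins that it receives in part from prefoldin. Mitochondria have their own chaperonin, built from HSP60 and HSP10, and the transcription factor HSF1 raises many of these genes when proteins unfold. Embryonic stem cells are known for high levels of several chaperones, TRiC among them.

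Values are CPM (a gene's reads scaled to a common library size), and libraries held an estimated 1301531 to 2031518 reads (total RNA) and 1835677 to 2960255 reads (footprints). Pearson's r between replicates on the log2(CPM + 1) scale was 0.944 to 0.972. The ribosomal RNA row Rn45s took 2.49% to 6.46% of total RNA and 38.3% to 46.3% of footprint reads. Mettl6 RNA was 25.6 and 27.07 CPM in WT, against 2.305 and 0 CPM in KO, while its footprints were 3.378 and 6.589 CPM in WT, against 5.333 and 4.358 CPM in KO (log2 change 0.02, limma-trend adjusted p = 0.985; change in translational efficiency 3.93, adjusted p = 0.0225). Mettl6 thus bears out the KO label in total RNA and not in footprints, and the footprint libraries are called KO below from their labels. Of 10 pluripotency markers, none was at 0 in any library, and their summed total RNA was 6268 to 6572 CPM in WT and 5639 to 5994 CPM in KO. In total RNA 2 of the 10 were lower in KO and 0 higher (7.03% and 6.57% of all genes tested). These were Nanog on chromosome 6 (log2 change -0.77, limma-trend adjusted p = 0.00014) and Zfp42 on chromosome 8 (-0.576, adjusted p = 0.00254). In footprints 2 of the 10 were lower and 1 higher (8.28% and 10.7% of all genes tested). Summed fibroblast markers were 6.561 to 18.44 CPM, with 7 of 10 at 0 in each total RNA library. Summed primitive endoderm markers, with 1 to 5 of 10 at 0, were 124.6 to 179.2 CPM in WT and 318.2 to 346.5 CPM in KO total RNA. Lama1 and Col4a1 made up 166.9 and 119 CPM of these sums in WT and 323.5 and 298.5 CPM in KO. The other 8 (Gata6, Gata4, Sox17, Sox7, Pdgfra, Foxa2, Dab2 and Amn) made up 5.619 to 12.31 CPM in WT and 19.68 to 23.05 CPM in KO. In footprints 6 of the 10 were tested, with a median log2 change of 1.15. Of these, 3 were higher in KO and 1 lower, where 10.7% and 8.28% of all genes tested were. The marker lower in footprints was Gata4 (log2 change -1.02, limma-trend adjusted p = 0.044). The part of these genes in the changes of chaperone genes was not tested. Such sums come from whole cultures, where fewer cells of a type and less RNA per cell cannot be told apart. Genes on chromosomes 6, 8 and 11 had a median change from WT to KO of -0.42 on the log2 scale in total RNA and -0.43 in footprints, against 0.03 and 0.01 elsewhere, and 7 of the 36 chaperone genes lie on them.

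In total RNA the chaperone genes were mostly lower in KO. A gene is called changed here when limma-trend on log2(CPM + 1) gave a Benjamini-Hochberg adjusted p below 0.05 over all 13222 genes tested. By that rule 15 of 36 chaperone genes fell and 1 rose, while of all genes tested 7.03% fell and 6.57% rose. Their median log2 change was -0.34 against -0.04 over all genes, and 31 of the 36 changes were negative. Both KO libraries were below both WT libraries for 25 of 36, and above them for 3 of 36, where the shares of all genes tested were 29.8% and 26.4%. Their summed RNA was 28250 and 27320 CPM in WT, against 20790 and 21960 CPM in KO, while their summed footprints overlapped, at 15900 and 19910 CPM in WT, against 19150 and 17180 CPM in the libraries labelled KO. The calls need both KO libraries: without either, a fit of 3 total RNA libraries called almost no gene of the whole table, chaperone gene or not. The sizes moved less. The median change of the chaperone genes was -0.397 and -0.405 without WT replicate 1 or 2, and -0.44 and -0.368 without KO replicate 1 or 2. When the footprint libraries were kept in the fit to estimate the spread, the lone library was assumed to vary like the rest. On leaving out any 1 total RNA library there, fewer chaperone genes were called lower than in the main fit. Fewer genes of the whole table were called lower too. The 4 genes called in each of these fits were Cct4, Cct7, Fkbp4 and Hspa4, which lie on chromosomes 6 and 11.

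**Figure D1:**
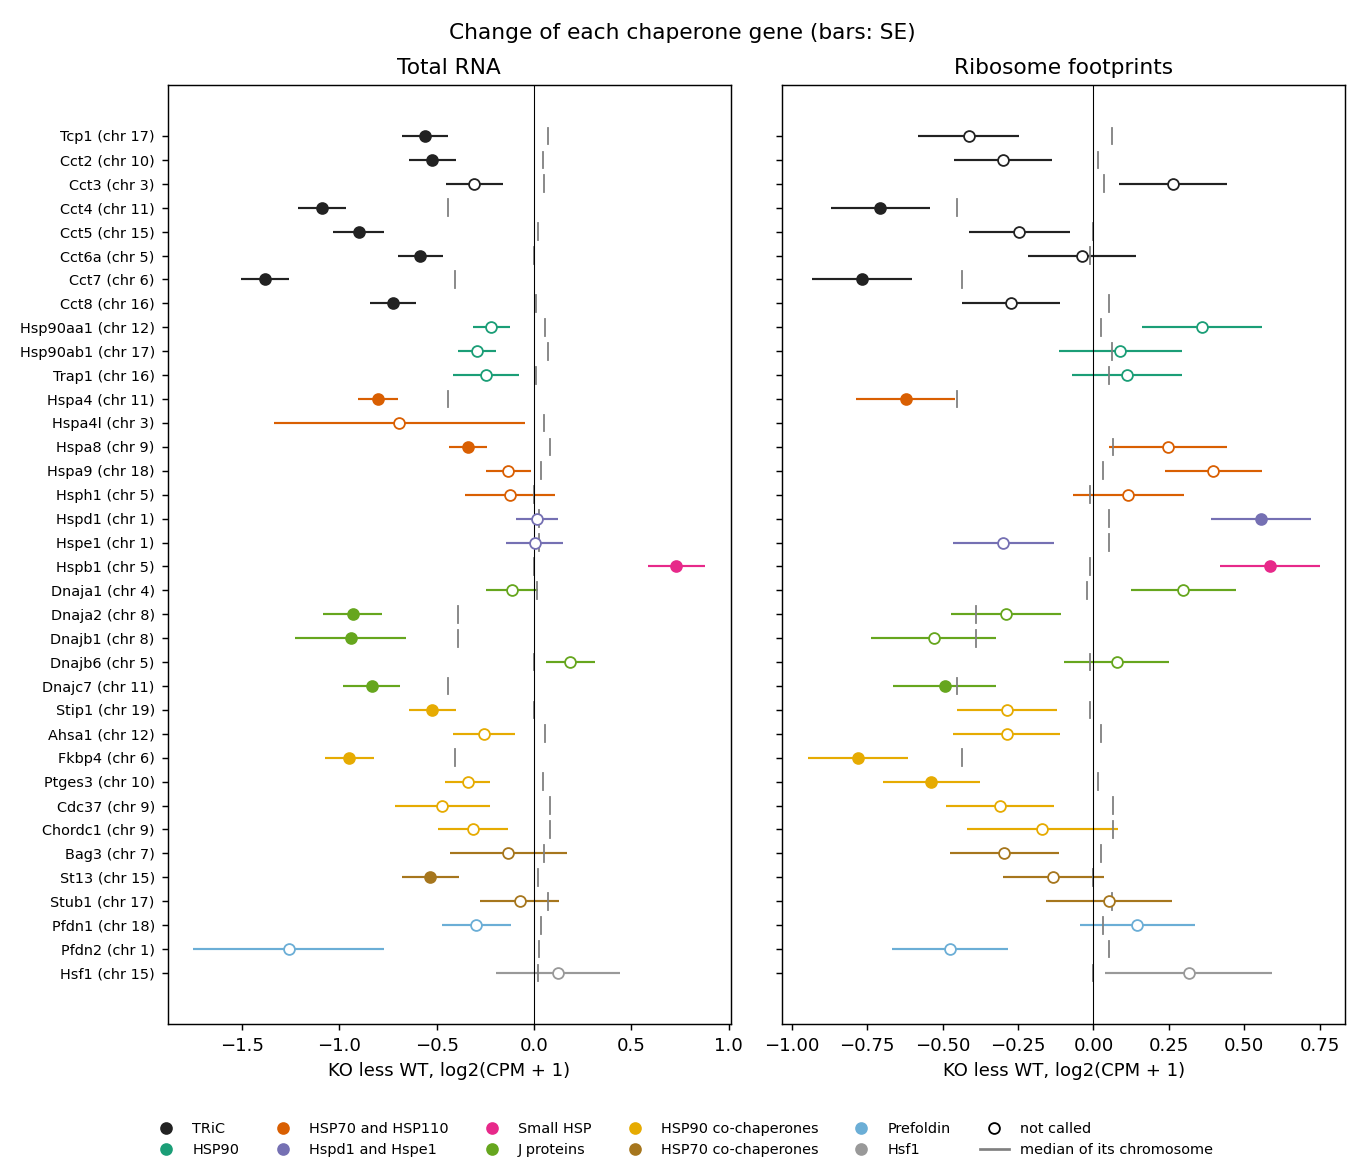
Change from WT to KO of each chaperone gene on the log2(CPM + 1) scale in total RNA (left) and footprints (right), with bars for the SE of limma-trend (2 libraries per genotype), filled points for called genes and grey ticks for the median of the gene's chromosome. The TRiC subunits lie at -1.38 to -0.31 in total RNA and at -0.77 to 0.27 in footprints, and Hspb1 lies to the right in both.

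The chaperonin TRiC showed the broadest decrease. It is a double ring of 8 different subunits, Tcp1 and Cct2 to Cct8 (with Cct6a for the sixth), each needed for the ring. In total RNA 7 of the 8 subunits fell, where 7.03% of all genes tested did. Summed TRiC RNA was 5335 and 5007 CPM in WT, against 2921 and 3137 CPM in KO, a WT mean 1.71 times the KO mean. The largest change was that of Cct7 (chromosome 6, 85451514 to 85468475, plus strand, GRCm38), at 865.9 and 747.8 CPM in WT, against 323.4 and 292.6 CPM in KO. Its log2 change was -1.38 (SE 0.12, limma-trend adjusted p = 1.58e-06). Cct4 (chromosome 11, 22990519 to 23003780, plus strand) was at 910.2 and 790.2 CPM in WT, against 368.8 and 428.5 CPM in KO, with a log2 change of -1.09 (SE 0.12, limma-trend adjusted p = 2.22e-05). In both genes the lower WT library was well above the higher KO library.

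The other subunits lie outside chromosomes 6, 8 and 11. Cct5 on chromosome 15 was at 557.7 and 521 CPM in WT, against 256.6 and 323.5 CPM in KO, a log2 change of -0.90 (SE 0.13, limma-trend adjusted p = 0.000271). Cct8 on chromosome 16 was at 535.6 and 543.4 CPM in WT, against 326.5 and 324.8 CPM in KO, with replicates close together in both genotypes and a log2 change of -0.73 (SE 0.12, limma-trend adjusted p = 0.000565). Both subunits were separated between genotypes by more than their replicates differed. Cct6a on chromosome 5 was at 758.1 and 852.5 CPM in WT, against 525.5 and 547.2 CPM for KO (log2 change -0.58). Tcp1 on chromosome 17, which encodes the first subunit, was at 644.2 and 560.2 CPM in WT, against 405.2 and 409.9 CPM for KO (log2 change -0.56). Cct2 on chromosome 10 was at 553.8 and 610.4 CPM in WT, against 391.8 and 418.6 CPM for KO (log2 change -0.52). Limma-trend adjusted p was 0.0024, 0.00483 and 0.0074 for Cct6a, Tcp1 and Cct2. Cct3 on chromosome 3 was not called, at 509.5 and 381.6 CPM in WT, against 323.5 and 392.4 CPM in KO (adjusted p = 0.185), and its groups overlapped. With each chromosome's median removed from its genes the same 7 subunits were called, Cct7 at -0.98 and Cct4 at -0.65. The 8 changes were negative under each alternative run. Without either KO library a fit of 3 total RNA libraries called no subunit, and almost no gene of the whole table. The fits that left out 1 library and also held the footprint libraries called fewer subunits than the main fit. Only Cct7 and Cct4, on chromosomes 6 and 11, were called in each of them. Exons of Cct6a and Tcp1 overlap the opposite-strand genes Psph (12.5% of exonic bases) and Acat3 (11.4%), and whether counting used strand is not given in the sources used here.

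**Figure D2:**
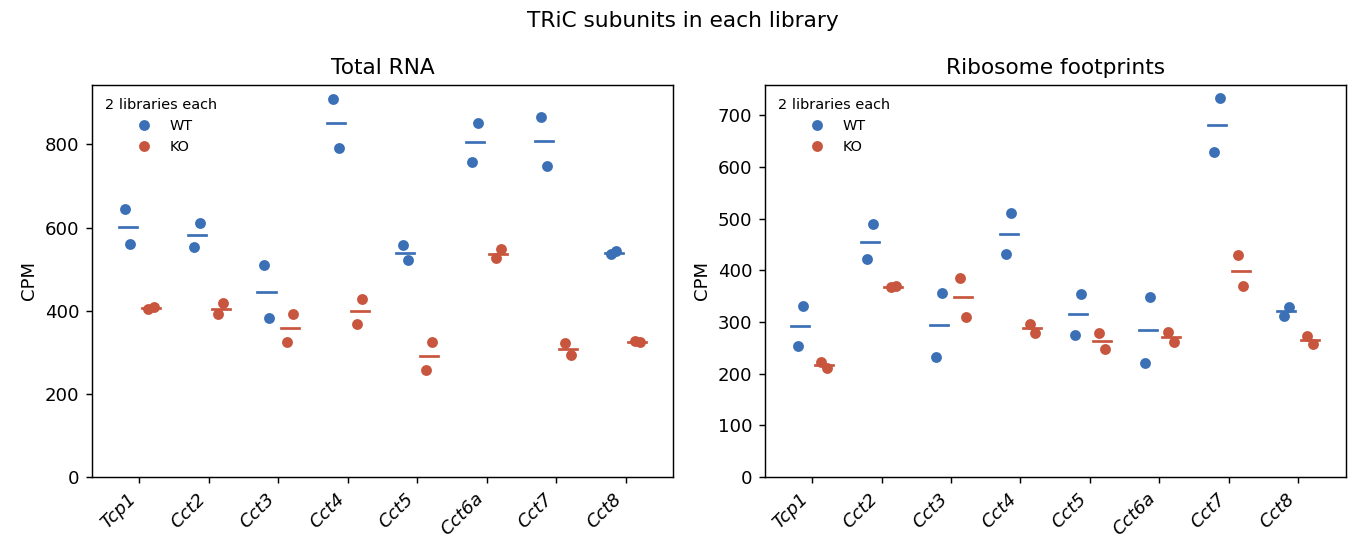
CPM of the 8 TRiC subunits in each library (points) and the mean of each genotype (lines), in total RNA (left) and footprints (right), on linear axes from 0. In total RNA both KO points lie below both WT points for each subunit but Cct3, and in footprints Cct7 and Cct4 show the widest gaps.

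In footprints, with libraries taken by their labels, 2 of the 8 TRiC subunits fell, Cct7 and Cct4. That count depended on the processing: it was 5 with Rn45s left out of the total, 4 under quantile normalization, 3 with median-of-ratios factors and 1 with chromosome medians removed, and fits of 3 libraries gave 0 without KO replicate 2, 1 without WT replicate 2 and 3 without WT replicate 1. Over the chaperone genes, 35 of 36 passed the filter of a mean of 1 CPM in footprints (Hspa4l, an HSP110-type gene, did not, at 0 to 1.351 CPM). Of the 35, 6 fell and 2 rose, where 8.28% of the 11624 genes tested fell and 10.7% rose. Genes called lower over the whole table were 963 in the main fit. They were 1063 under quantile normalization, 1468 with Rn45s left out of the library total and 476 with chromosome medians removed. The number of chaperone genes lower was 11, 12 and 2 in these settings. In fits of 3 footprint libraries it was 6 and 2 without WT replicate 1 or 2, and 4 and 0 without KO replicate 1 or 2. Both KO libraries were below both WT libraries for 15 of the 36 genes and above them for 7 of 36, where the shares of all genes tested were 30.7% and 26.9%. Summed TRiC footprints were 2776 and 3452 CPM in WT, against 2536 and 2305 CPM in KO, a WT mean 1.29 times the KO mean. Cct7 had footprints of 628.3 and 732.7 CPM in WT, against 429.5 and 368.8 CPM in KO, and Cct4 had 432 and 510.1 CPM in WT, against 296.2 and 278.9 CPM in KO. The footprint log2 change was -0.77 (SE 0.17, limma-trend adjusted p = 0.00077) for Cct7 and -0.71 (SE 0.16, adjusted p = 0.00166) for Cct4. With chromosome medians removed these became -0.33 (limma-trend adjusted p = 0.181) and -0.25 (adjusted p = 0.33), so both calls were lost. Footprints of the other subunits were not called, from -0.41 for Tcp1 (limma-trend adjusted p = 0.0799) to 0.27 for Cct3. Tcp1 was called lower with chromosome medians removed (limma-trend adjusted p = 0.0495), median-of-ratios factors (0.0457), quantile normalization (0.00925) and Rn45s left out (0.0083). Cct8 was called under the last pair of these (0.0393 and 0.0496) and Cct2 with Rn45s left out (0.0332).

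Per kilobase of coding sequence, the 7 subunits with a coding transcript in GENCODE vM21 were more even in KO footprints than in WT ones (Cct6a had none there). The coefficient of variation over those subunits was 38.8% and 33.8% in the WT libraries and 23.2% and 21.5% in the KO libraries. In WT, Cct7 had the highest footprint level per kilobase in both libraries, at 385 and 449 CPM per kb where the median subunit had 190 and 218. In KO, Cct7 was highest in replicate 1 at 263 CPM per kb and Cct2 in replicate 2 at 230. Cct7 and Cct4 lie on chromosomes 6 and 11, whose median footprint changes were -0.435 and -0.453. The part of these chromosomes in the evenness was not tested. On total RNA per kilobase of transcript the variation was 15.3% to 19.4% in the 4 libraries, with no separation of the genotypes. This comparison was made after the values had been seen, and with 2 libraries a group an exact two-sided permutation test cannot give a p below 0.333.

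Prefoldin is a 6-subunit complex that hands unfolded actin and tubulin to TRiC, and 2 of its subunits are in the list. Pfdn2 RNA was low and uneven, at 17.72 and 21.96 CPM in WT, against 3.842 and 14.43 CPM for KO (log2 change -1.26, SE 0.49, limma-trend adjusted p = 0.1). Its footprints were 65.87 and 69.18 CPM in WT, against 50.45 and 46.3 CPM in KO (adjusted p = 0.0799), so neither was called, although the groups did not overlap in either. Klhdc9 on the opposite strand overlaps 27.6% of the exonic bases of Pfdn2. Pfdn1 was at 89.89 to 129 CPM in total RNA and at 54.12 to 64.4 CPM in footprints. Of 12 other genes of prefoldin and of factors that assist TRiC, 2 fell (16.7%, against 7.03% of all genes) and 0 rose in total RNA, Pdcd5 at -0.86 (SE 0.27, limma-trend adjusted p = 0.0406) and Pdcl at -0.72 (SE 0.23, adjusted p = 0.0414), and 0 were called in footprints.

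The cytosolic HSP90 and HSP70 genes were the most abundant of the list. Per kilobase of transcript, Hsp90aa1, the inducible HSP90, was highest in WT total RNA at 1900 CPM per kb, followed by Hspa8, the constitutive HSP70, at 1870 and Hsp90ab1, the constitutive HSP90, at 1530. Hsp90aa1 RNA was 6328 and 6168 CPM in WT, against 5176 and 5562 CPM in KO, and Hsp90ab1 RNA was 4044 and 3678 CPM in WT, against 3080 and 3223 CPM in KO. The KO libraries of both genes were below their WT libraries, yet neither passed the test (log2 changes -0.22 and -0.29, limma-trend adjusted p = 0.145 and 0.0608). Hsp90ab1 did pass with a filter at a mean of 5 CPM (limma-trend adjusted p = 0.0499), with Rn45s left out of the total (0.0299) and with chromosome medians removed (0.0253). Hspa8 fell, from 4407 and 4526 CPM in WT to 3485 and 3579 CPM in KO, by a log2 change of -0.34 (SE 0.10, limma-trend adjusted p = 0.0253). Its call was lost under quantile normalization, where the change was -0.08 (adjusted p = 0.555), with no filter on low values and in a fit of all 8 libraries.

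Footprints of the same 3 genes gave no called change. Hsp90aa1 footprints were 2299 and 3213 CPM in WT, against 3572 and 3405 CPM for KO (log2 change 0.36, SE 0.20, limma-trend adjusted p = 0.216). Hsp90ab1 footprints were 3328 and 4191 CPM in WT, against 4324 and 3651 CPM in KO, and Hspa8 footprints were 1780 and 2575 CPM in WT, against 2798 and 2311 CPM in KO. In each of these genes the WT replicates differed by more than the genotype means did. Under quantile normalization the 3 changes were negative, at -0.27, -0.43 and -0.19 for Hsp90aa1, Hsp90ab1 and Hspa8, and that of Hsp90ab1 then passed the test (limma-trend adjusted p = 0.0117). With median-of-ratios factors Hsp90aa1 was instead called higher, at 0.40 (limma-trend adjusted p = 0.0428), so no direction is given for them. Of the 25-base words in their transcripts, 53.3% for Hsp90aa1, 45.4% for Hspa8 and 21.3% for Hsp90ab1 also occur in other genes, pseudogenes most of all, and reads there may be divided between copies.

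Hspa4, an HSP110-type exchange factor that renews the nucleotide on HSP70, was the clearest change in this class. It lies on chromosome 11 (53259814 to 53300457, minus strand). Its RNA was 1397 and 1392 CPM in WT, against 794.4 and 807 CPM in KO, with replicates close together, and its log2 change was -0.80 (SE 0.10, limma-trend adjusted p = 7.88e-05). Its footprints were 731.7 and 847.7 CPM in WT, against 529.1 and 494.1 CPM in KO, a log2 change of -0.62 (SE 0.16, limma-trend adjusted p = 0.00565). The median gene of chromosome 11 changed by -0.44 in total RNA and by -0.45 in footprints; with that removed, Hspa4 kept its call in total RNA at -0.36 (limma-trend adjusted p = 0.0332) and lost it in footprints at -0.17 (adjusted p = 0.553). Neither Hspa9, the mitochondrial HSP70, nor Hsph1, another HSP110, was called; total RNA was 862.8 to 1076 CPM for Hspa9 and 80.7 to 159.8 CPM for Hsph1, and genotypes overlapped in both. Hspa9 footprints did not overlap, at 475.9 and 513.9 CPM in WT, against 650.1 and 653.7 CPM in the libraries labelled KO (log2 change 0.40, limma-trend adjusted p = 0.0814). Hspa4l RNA was 1.537 to 5.619 CPM.

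**Figure D3:**
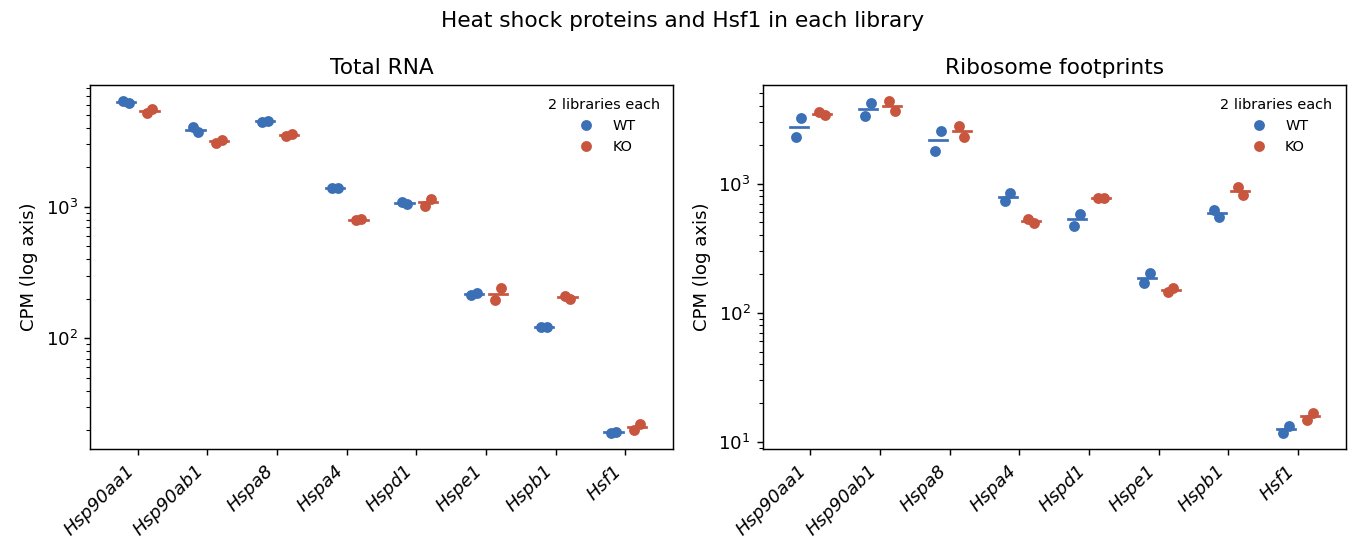
CPM of 7 heat shock protein genes and of Hsf1 in each library (points) with the mean of each genotype (lines), on a log axis, for total RNA (left) and footprints (right). Hspa4 is lower in KO in both, Hspb1 is higher in KO in both, and Hspd1 is level in total RNA and higher in KO footprints.

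The called increases were those of Hspd1, in footprints alone, and of the small heat shock protein gene Hspb1, in both assays; Hspe1, the partner of Hspd1, was not called in either. Hspd1 encodes HSP60, the barrel, and Hspe1 encodes HSP10, its lid. They lie head to head on chromosome 1 (Hspd1 55077835 to 55088243, minus strand, and Hspe1 55088132 to 55091307, plus strand), where their annotated exons overlap by 112 bases. Hspd1 RNA was 1089 and 1045 CPM in WT, against 1013 and 1147 CPM in KO, and Hspe1 RNA was 213.6 and 219.6 CPM in WT, against 195.9 and 240.8 CPM in KO. The genotypes overlapped in total RNA for both genes (limma-trend adjusted p = 0.95 and 0.992). Hspd1 footprints were 469.9 and 585 CPM in WT, against 768.7 and 773 CPM in KO, a rise of 0.56 on the log2 scale (SE 0.17, limma-trend adjusted p = 0.0147). Hspe1 footprints were 168.5 and 204.2 CPM in WT, against 145.2 and 156.3 CPM in KO, a log2 change of -0.30 that was not called (adjusted p = 0.231). The KO libraries were thus above the WT libraries for Hspd1 and below them for Hspe1.

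The ratio of Hspd1 to Hspe1 was taken within each library. Per kilobase of coding sequence, Hspd1 had 0.496 and 0.51 times the footprints of Hspe1 in WT and 0.942 and 0.88 times in KO. Per kilobase of transcript, the ratio in total RNA was 1.63 and 1.52 in WT and 1.65 and 1.52 in KO. The genotypes did not overlap in the footprint ratio and overlapped in the RNA ratio. The footprint ratio was picked after its values were seen, and its exact two-sided permutation p over the 4 libraries was 0.333, the smallest possible. Of the 25-base words of Hspd1, 53.7% also occur in other genes, chiefly its pseudogenes, and 27.3% of those of Hspe1 do. The call of Hspd1 in footprints was lost in 3 of 4 fits that left out 1 footprint library and kept the total RNA libraries. The ratio of Hspd1 to Hspa9, the other mitochondrial partner, was 1.17 and 1.35 in WT footprints and 1.4 in both KO footprint libraries. In total RNA it was 1.27 and 1.3 in WT and 1.48 and 1.37 in KO. Both KO libraries were thus above both WT libraries in each assay, by less than for the footprint ratio of Hspd1 to Hspe1. The corresponding ratio of Hsp90aa1 to Hsp90ab1 was 0.682 and 0.757 in WT footprints and 0.816 and 0.921 in KO footprints, and 1.2 to 1.33 in total RNA.

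**Figure D4:**
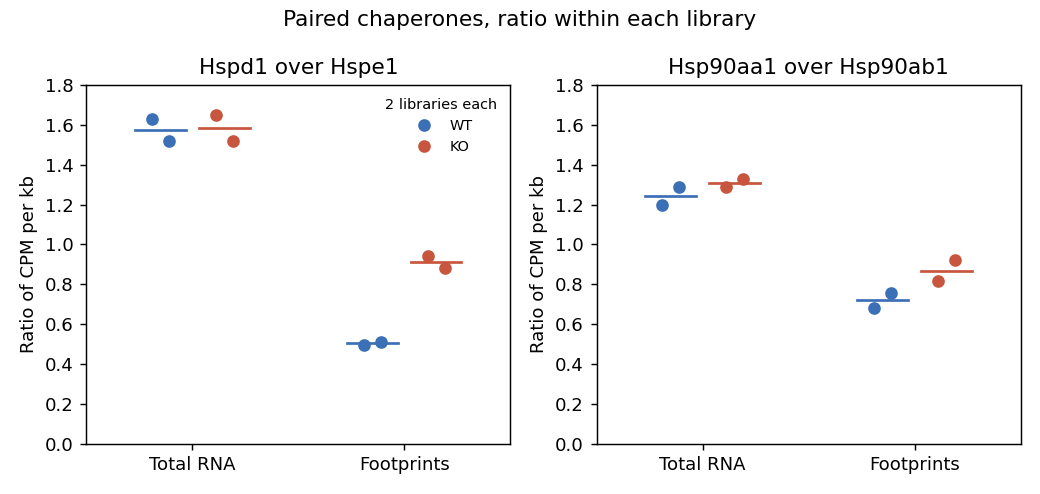
Ratio of CPM per kilobase of Hspd1 to Hspe1 (left) and of Hsp90aa1 to Hsp90ab1 (right) in each library (points) with the mean of each genotype (lines), per kilobase of transcript for total RNA and of coding sequence for footprints. The footprint ratio of Hspd1 to Hspe1 is 0.496 and 0.51 in WT and 0.942 and 0.88 in KO, and the total RNA ratios of the genotypes overlap.

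Hspb1, also called HSP25 in the mouse, is a small heat shock protein that holds unfolded proteins without ATP and is linked to the actin cytoskeleton. It lies on chromosome 5 (135887919 to 135889563, plus strand). Its RNA was 122.6 CPM in both WT libraries and 210.5 and 198.2 CPM in KO, and it was the only chaperone gene of the 36 called higher in total RNA (log2 change 0.73, SE 0.15, limma-trend adjusted p = 0.003). Its footprints were 621.6 and 554.4 CPM in WT, against 947.1 and 819.8 CPM in KO, a log2 change of 0.59 (SE 0.17, limma-trend adjusted p = 0.00984). The groups did not overlap in either kind of library. Each call was lost in 2 of 4 fits that left out 1 library and kept both kinds of library. The pseudogene Hsp25-ps1 shares 53.5% of the 25-base words of Hspb1. Footprints of Hspb1 were high for its RNA: the footprint to RNA ratio stood 3.12 log2 units above the median of 11364 genes in WT and 2.90 above it in KO, at percentiles 99.6 and 99.3. The ratio also moves with the share of a transcript that is coding.

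J proteins start the HSP70 cycle by delivering clients and setting off ATP hydrolysis. Of the 5 in the list 3 fell in total RNA, where 7.03% of all genes tested did. Those 3 are the ones on chromosomes 8 and 11, and 20.6% of the genes tested on chromosomes 6, 8 and 11 fell. Dnaja2 was at 194.4 and 205.9 CPM in WT, against 106 and 103 CPM for KO (log2 change -0.93, SE 0.15, limma-trend adjusted p = 0.000557). Dnajb1, a J protein induced by heat shock, was at 62.51 and 44.95 CPM in WT, against 20.74 and 35.43 CPM for KO (log2 change -0.94, SE 0.28, limma-trend adjusted p = 0.0353). Dnajc7, which also binds HSP90, was at 297.3 and 291.2 CPM in WT, against 185.9 and 145.7 CPM for KO (log2 change -0.83, SE 0.15, limma-trend adjusted p = 0.00111). In each the KO libraries were below the WT libraries. With chromosome medians removed Dnaja2 kept its call at -0.54, while Dnajb1 (limma-trend adjusted p = 0.236, also lost with a pseudocount of 0.1 or no filter) and Dnajc7 (adjusted p = 0.0979) lost theirs. In footprints Dnajc7 alone was called, at 174.6 and 222.6 CPM in WT, against 146.4 and 133.5 CPM for KO (log2 change -0.49, limma-trend adjusted p = 0.0376), and not once the median of chromosome 11 was removed (adjusted p = 0.916). Dnaja1 and Dnajb6 lie elsewhere and were not called, with total RNA of 221.2 to 242.3 CPM and 264.3 to 314.9 CPM. Of 34 other J proteins tested in total RNA 2 fell (5.88%, near the 7.03% of all genes) and 0 rose, with a median log2 change of 0.00 over the 34. The call with the smallest p was that of Dnajc2, which acts at the ribosome (-0.84, SE 0.14, limma-trend adjusted p = 0.000756). In footprints 0 of 32 fell and 3 rose (9.38%, near the 10.7% of all genes).

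HSP90 co-chaperones had the lowest summed footprints in KO relative to WT among the classes, at 2075 and 2321 CPM in WT, against 1609 and 1425 CPM in KO. Fkbp4 (FKBP52, a prolyl isomerase that joins HSP90 on steroid receptors; chromosome 6, 128429735 to 128438677, minus strand) was at 991.4 and 835.2 CPM in WT, against 431 and 514.4 CPM in KO total RNA. Its log2 change was -0.95 (SE 0.13, limma-trend adjusted p = 9.42e-05). Its footprints were 895.9 and 977.9 CPM in WT, against 594 and 499.5 CPM for KO (log2 change -0.78, SE 0.17, limma-trend adjusted p = 0.000715), a call lost with the median of chromosome 6 removed (-0.35, adjusted p = 0.167). Both KO libraries lay well below both WT libraries in either assay. Stip1 (HOP), which links HSP70 to HSP90, fell in total RNA from 519.3 and 502.1 CPM in WT to 338.8 and 372.7 CPM in KO (log2 change -0.52, SE 0.12, limma-trend adjusted p = 0.00796). Its footprints were 390.2 and 474.4 CPM in WT, against 380.3 and 326.9 CPM in KO and were not called (adjusted p = 0.241).

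Ptges3 (p23), which stabilises the closed form of HSP90, was called in footprints and not in total RNA. Its footprints fell from 484.1 and 456.5 CPM in WT to 310.5 and 337.2 CPM in KO (log2 change -0.54, SE 0.16, limma-trend adjusted p = 0.0151). Its RNA was 577.9 and 637.5 CPM in WT, against 481 and 478.3 CPM in KO and was not called (log2 change -0.34, adjusted p = 0.0621), but passed with chromosome medians removed (-0.39, limma-trend adjusted p = 0.04). Its footprint call was lost in each of the 4 fits of 3 footprint libraries (limma-trend adjusted p = 0.0533 to 0.153) and in 3 of 4 fits that left out 1 library and kept both kinds. The difference between the assays did not pass either, with a translational efficiency change of -0.20 (limma-trend adjusted p = 0.827). Ptges3 on chromosome 10 was the only member outside chromosomes 6, 8 and 11 with a called decrease in footprints. Ahsa1, Cdc37 and Chordc1, which activate HSP90 or bring it clients, were not called in either assay, at 52.49 to 139.5 CPM in total RNA. Of 18 further HSP90 co-chaperones outside the list, 7 fell (38.9%, against 7.03% of all genes) and 0 rose in total RNA, and 5 fell (27.8%, against 8.28%) and 0 rose in footprints. Of those that fell, 2 in each assay, Fkbp8 and Ruvbl1, lie on chromosomes 8 and 6. Nudc changed by -0.91 (SE 0.15, limma-trend adjusted p = 0.000778), Tomm34 by -1.27 (SE 0.24, adjusted p = 0.00174) and Fkbp8 by -0.73 (SE 0.17, adjusted p = 0.00759) in total RNA. In footprints Fkbp5 changed by -0.77 (SE 0.20, limma-trend adjusted p = 0.00467) and Tomm34 by -0.70 (SE 0.21, adjusted p = 0.0163).

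Among HSP70 co-chaperones, St13 (HIP), which steadies the ADP-bound form of HSP70, fell in total RNA. It was at 248.1 and 205.9 CPM in WT, against 151.4 and 160.8 CPM for KO (log2 change -0.53, SE 0.15, limma-trend adjusted p = 0.0234), a call lost with no filter on low values (adjusted p = 0.0687). Its footprints overlapped between genotypes, at 172.6 and 206.6 CPM in WT, against 180.1 and 164.5 CPM in KO. Bag3, an exchange factor that works in selective autophagy, and Stub1 (CHIP), a ubiquitin ligase for chaperone clients, were not called, at 22.31 to 39.95 CPM and 55.07 to 60.5 CPM in total RNA. Jmjd8 on the opposite strand overlaps 42.3% of the exonic bases of Stub1. Trap1, the mitochondrial HSP90, was at 109.1 to 157.8 CPM and was not called. Hsf1, the regulator of the heat shock response, was low. Its RNA was 19.2 and 19.41 CPM in WT, against 19.98 and 22.31 CPM in KO. Its footprints were 11.82 and 13.18 CPM in WT, against 14.77 and 16.86 CPM in KO. Both KO libraries were above both WT libraries in each assay. Neither change passed the test (log2 changes 0.123 and 0.316, limma-trend adjusted p = 0.848 and 0.469).

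Genes of these families outside the list were called mostly lower in total RNA and in both directions in footprints. Of 118 further chaperone, co-chaperone and protein quality genes, 16 fell and 1 rose of 108 tested in total RNA (14.8% and 0.926%, against 7.03% and 6.57% of all genes), with a median log2 change of -0.15. In footprints 11 fell and 8 rose of 103 tested (10.7% and 7.77%, near the 8.28% and 10.7% of all genes), with a median of -0.09. On chromosomes 6, 8 and 11 lay 5 of the 16 that fell in total RNA and 6 of the 11 in footprints. The single increase in total RNA was Clpb, a mitochondrial disaggregase, at 97.46 and 60.28 CPM in WT, against 118.3 and 158.8 CPM for KO (log2 change 0.83, SE 0.22, limma-trend adjusted p = 0.0165). Clpb footprints rose too, from 68.58 and 60.71 CPM to 111.2 and 117.1 CPM (log2 change 0.81, SE 0.18, limma-trend adjusted p = 0.00107). Hspa13, an HSP70-like protein of the endoplasmic reticulum, had footprints of 10.13 and 11.29 CPM in WT, against 34.46 and 26.69 CPM for KO (log2 change 1.42, SE 0.26, limma-trend adjusted p = 9.48e-05). The stress-inducible Hspa1a was listed at 0 in 3 of 4 total RNA libraries and at 2.305 CPM in the other, and its footprints were 6.131 and 2.795 CPM in WT and listed at 0 in both KO libraries (limma-trend adjusted p = 0.00105). Its near-identical copy Hspa1b had footprints of 4.006 and 13.67 CPM in WT, against 11.48 and 9.811 CPM in KO. Summed over both genes the footprints overlapped between genotypes, at 10.14 and 16.46 CPM in WT, against 11.48 and 9.811 CPM in KO, so the value of Hspa1a alone is uncertain, since counting could divide reads between the copies.

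Position in the genome sorted part of these changes. On chromosomes 6, 8 and 11, 7 of 7 chaperone genes fell in total RNA, where 20.6% of the 2318 genes tested there fell, and 5 of 7 fell in footprints, where 26.7% did. Elsewhere 8 of 29 fell in total RNA (27.6%), where 4.15% of 10904 genes fell, and the median change of the 29 was -0.30. In footprints 1 of 28 fell elsewhere (3.57%), where 4.27% of 9545 genes fell, and the median of the 28 was 0.01. In total RNA the main fit thus held decreases on and off those chromosomes. In footprints the called decreases lay mainly on them. No chaperone gene off them was called lower in each total RNA fit that left out 1 library and kept the footprint libraries.

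The changes in the 2 assays were set side by side over the 35 genes tested in both. Pearson's r was 0.787 and Spearman's rho 0.75, as a description over genes that share the same 8 libraries and, for 7 of them, chromosomes with a lower median. For 29 of 35 the change was higher in footprints than in total RNA, where 55.4% of all 11364 genes tested had a positive change in translational efficiency (the footprint change less the RNA change). The median of the 35 was 0.36 against 0.07 over all genes. No chaperone gene was called in the interaction test of limma-trend, which called 0.0616% of all genes. At an unadjusted p below 0.05 there were 10 of 35, all positive, where 5.47% of all genes had a positive change at that level. That number ran from 3 (without WT total RNA replicate 1, KO total RNA replicate 1 or WT footprint replicate 1) to 16 (without WT footprint replicate 2), and under quantile normalization 1 of 10 was negative. They included Cct5 at 0.66 (SE 0.23, limma-trend adjusted p = 0.411), Cct7 at 0.62 (SE 0.22, adjusted p = 0.411), Dnaja2 at 0.64 (SE 0.24, adjusted p = 0.445) and Hspd1 at 0.54 (SE 0.22, adjusted p = 0.464). TRiC subunits ran from 0.14 to 0.66. The median of the chaperone genes was 0.16 without WT footprint replicate 1 and 0.51 without WT footprint replicate 2, so its size rests in part on which WT footprint library is used. Pfdn2 alone passed, at 1.62 (limma-trend adjusted p = 0.0391), when KO total RNA replicate 2 was left out, and it was at -0.05 without KO total RNA replicate 1.

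**Figure D5:**
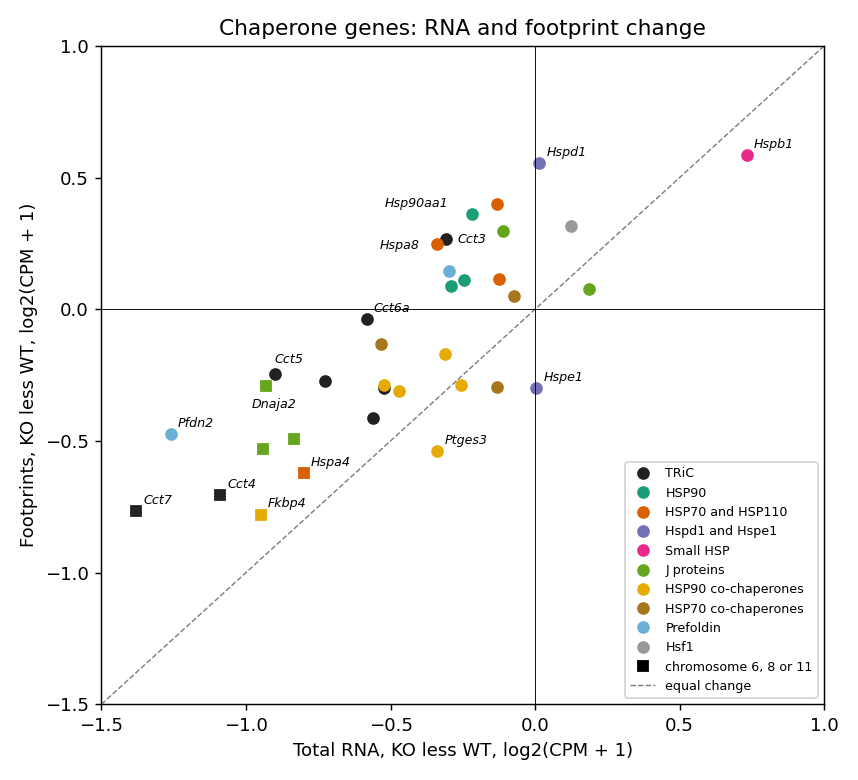
Change from WT to KO in total RNA (horizontal) and in footprints (vertical), both on the log2(CPM + 1) scale, for 35 chaperone genes coloured by class, with squares for chromosomes 6, 8 and 11 and a dashed line of equal change. Of the 35 genes, 29 lie above the line, and the squares sit at the lower left.

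Promoters were read for the element that HSF1 binds, since these genes include its best known targets. RefSeq windows of GRCm38.p6, from 250 bases before to 50 after an annotated start, were matched by symbol for 28 of the 36 genes (38 windows). The motif searched, on either strand, is GAA, TTC and GAA in a row with any 2 bases between neighbours, and each match also holds the shorter GAANNTTC. It was in 7 of 38 chaperone windows (18.4%) and in 0.603% of all 32851 windows, in the genes Chordc1, Dnajb6, Hspd1, Hspe1 and Hsph1. GAANNTTC was in 34.2% of chaperone windows and 7.86% of all windows, and CCAAT, on either strand, in 36.8% and 37.4%. Below are 3 windows that hold the longer motif, in capitals where it or overlapping copies of it lie, and that of Cct7, the gene with the largest decrease, which holds none. Each is printed 5′ to 3′ along the gene, at chr1:55087898-55088197 (plus strand) for Hspe1, chr9:18292017-18292316 (plus strand) for Chordc1, chr5:149636266-149636565 (minus strand) for Hsph1 and chr6:85451255-85451554 (plus strand) for Cct7.
Hspe1: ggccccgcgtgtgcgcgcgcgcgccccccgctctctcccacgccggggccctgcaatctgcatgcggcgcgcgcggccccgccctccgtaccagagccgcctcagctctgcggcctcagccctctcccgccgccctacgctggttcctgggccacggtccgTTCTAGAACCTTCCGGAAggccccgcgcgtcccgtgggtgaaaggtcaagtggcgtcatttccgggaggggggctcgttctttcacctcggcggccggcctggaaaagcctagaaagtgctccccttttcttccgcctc
Chordc1: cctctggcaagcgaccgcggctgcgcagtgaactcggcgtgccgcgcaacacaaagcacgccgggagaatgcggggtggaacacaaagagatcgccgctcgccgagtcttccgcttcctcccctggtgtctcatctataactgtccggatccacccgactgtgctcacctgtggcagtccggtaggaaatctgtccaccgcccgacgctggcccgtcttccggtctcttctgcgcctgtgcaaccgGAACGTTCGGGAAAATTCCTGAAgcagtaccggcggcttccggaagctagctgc
Hsph1: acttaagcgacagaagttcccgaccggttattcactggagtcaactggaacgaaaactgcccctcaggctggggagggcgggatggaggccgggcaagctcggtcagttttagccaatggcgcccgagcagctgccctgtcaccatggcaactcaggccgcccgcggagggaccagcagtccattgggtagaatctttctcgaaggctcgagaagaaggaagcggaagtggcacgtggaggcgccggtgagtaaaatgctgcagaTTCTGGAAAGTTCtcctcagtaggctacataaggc
Cct7: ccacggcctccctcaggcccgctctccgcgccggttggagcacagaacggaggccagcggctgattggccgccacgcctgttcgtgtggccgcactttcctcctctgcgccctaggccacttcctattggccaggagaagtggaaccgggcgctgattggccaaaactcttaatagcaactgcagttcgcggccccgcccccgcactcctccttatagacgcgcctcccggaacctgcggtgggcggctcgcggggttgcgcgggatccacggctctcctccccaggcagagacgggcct
In the Hspe1 window 2 overlapping copies are centred 83 and 78 bases before the start, and the window of Hspd1 on the other strand (chr1:55087883-55088182) holds the same copies, 138 and 133 bases before its own start. Of the 5 genes with the motif, 0 were called in total RNA, and their median log2 change was 0.00. Of the 23 matched genes without it, 12 fell and 1 rose, with a median of -0.56. Of all genes tested 7.03% fell and 6.57% rose. None of the 5 lies on chromosomes 6, 8 or 11, while 6 of the 23 do and all 6 fell, where 20.6% of the genes tested there did. Of the other 17, 6 fell and 1 rose, with a median of -0.47, where 4.15% and 7.6% of the genes tested elsewhere did. Hspd1 and Hspe1 share their copies, and the 8 genes with no window were Cct4, Hsf1, Hsp90aa1, Hsp90ab1, Hspa8, Hspa9, Pfdn1 and St13. In footprints the medians were 0.08 and -0.29. The sets hold few genes and were formed after the values were known, so no test was run, and a match is a description of letters, not of binding.

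Serine is the amino acid whose tRNAs METTL6 methylates, and the share of serine codons was counted in each coding sequence. The median serine share was 5.87% over 35 chaperone genes with a coding sequence and 7.69% over 10571 genes. It was lowest for Dnaja1 at 3.02% and highest for Hsf1 at 12.2%. Across the 34 genes with both values, Pearson's r of serine share with the change in translational efficiency was -0.37 and Spearman's rho -0.35, given as a description over genes measured in the same libraries.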

How the data were processed

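Total RNA and ribosome footprints of WT and Mettl6 KO cells were measured in 2 libraries per group, 8 in all, grouped by library title. The authors deposited 1 table of CPM. Per the submitters' processing notes, CASAVA 1.8.2, Bowtie2, RSEM and mm10 were used; for settings and strand handling nothing is given in the sources used here. Depth was estimated from the most common nonzero CPM value of each library, taken as the worth of 1 read. Whole reads came out (within 0.01) for 67.3% to 90.5% of values, so no count test was run.

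Genes averaging 1 CPM or more were tested on log2(CPM + 1) with limma-trend (limma 3.58.1, R 4.3.3), with Benjamini-Hochberg adjustment over all genes and a threshold of 0.05: KO against WT in total RNA and in footprints (4 libraries and 2 residual degrees of freedom each), and their interaction (8 libraries, 4 degrees), called translational efficiency. SDs are not printed beside 2 values that are both given. Fold values are ratios of mean CPM.

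Positions, exons, coding lengths and 25-base words came from GENCODE vM21 (GRCm38), chromosomes for 22527 symbols and promoters from RefSeq (GRCm38.p6). The members and lists were chosen with earlier results of these data known. Total RNA values of each library are given for 24 members, and footprint values for most of them. These are the members called, the smallest p of each class, and Hsf1, Hsp90aa1, Hsp90ab1, Hspa8, Hspd1, Hspe1, Hspb1 and TRiC. Of the other lists, at most 3 called genes per list and comparison are named. The test was tried on simulated data. Alternatives changed the filter, pseudocount, scaling, block, chromosome medians, libraries in the fit and libraries left out.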

Additional observations from a re-analysis of the deposited data

How the results depend on the processing

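Over the 24 chaperone genes followed across settings, settings other than a left-out library gave 222 of 240 total RNA values, 212 of 240 footprint values and 214 of 216 translational efficiency values with the same direction and side of the threshold. The TRiC subunits called in total RNA held under each of these 9 alternatives and the block. Genes called in total RNA were 937 with no filter on low values, against 1799. Chaperone genes lower in footprints were 11 with quantile normalization, 12 with Rn45s out of the total (which moved the median of all genes from -0.05 to -0.13) and 2 with chromosome medians removed, against 6; those higher were 4 with median-of-ratios factors, against 2. Genes called in translational efficiency were 1 with no filter, 4 at a mean of 5 CPM, 2 and 14 at pseudocounts of 0.1 and 5, 11 with median-of-ratios factors and 12 without Rn45s, against 7. Calls higher and lower over all genes were 869 and 930 in total RNA and 885 and 596 with chromosome medians removed; in footprints they were 1242 and 963, 1263 and 476 with chromosome medians removed, and 1157 and 1468 without Rn45s. Chaperone genes at an unadjusted p below 0.05 in translational efficiency were 6 with no filter or chromosome medians removed, against 10. The causes were not tested. Log2 changes reversed in sign as follows. In total RNA Hspd1 was -0.0514 with quantile normalization and -0.00919 with chromosome medians removed, where Hspe1 was -0.0206. In footprints quantile normalization gave -0.274 for Hsp90aa1, -0.429 for Hsp90ab1 and -0.194 for Hspa8, median-of-ratios factors gave 0.00586 for Cct6a, and removing chromosome medians gave 0.0989 for Dnaja2. In translational efficiency quantile normalization gave -0.0226 for Hsp90aa1 and -0.343 for Hsp90ab1. Leaving out 1 library at a time, in fits of 1 or both kinds of library (the latter chosen after seeing the data), chaperone genes lower in total RNA ran from 0 to 10, those higher from 0 to 1 and genes called from 0 to 1414. In footprints the ranges were 0 to 6, 0 to 2 and 728 to 1524, and in translational efficiency 0 to 1 chaperone genes were higher and 2 to 48 genes were called. Total RNA changes ran from -0.0739 to 0.104 for Hspd1 and from -0.144 to 0.152 for Hspe1. Footprint changes ran from -0.0427 to 0.573 for Cct3, from -0.367 to 0.291 for Cct6a, from -0.077 to 0.255 for Hsp90ab1 and from -0.0184 to 0.514 for Hspa8, and translational efficiency from -0.0478 to 1.62 for Pfdn2 and from -0.0451 to 0.334 for Tcp1. A fit of 3 libraries has 1 residual degree of freedom, and its lone library is assumed to vary like the other group. The libraries share only a replicate number, and deviations of same-numbered libraries correlated at -0.0275 to 0.0571. With the replicate block, chaperone genes lower and higher were 15 and 1 in total RNA, and 4 and 0 in footprints. The block ended the footprint calls of Hspd1, Hspb1, Dnajc7 and Ptges3 and the total RNA call of Hspa8, while Pfdn2 passed in total RNA (limma-trend adjusted p = 0.0318). Depth limits low genes most: 1 read equalled 0.338 to 0.768 CPM, and Hspa4l, Pfdn2 and Hsf1 were at or below 22.31 CPM in each total RNA library.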
